A study of Mus musculus with 20 samples.

Results

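The core circadian clock genes were followed in cells of the mouse basolateral amygdala (BLA), a brain region of fear and reward learning. The genes were chosen by a list of 10 symbols, Dbp, Tef, Hlf, Per1, Per2, Per3, Nr1d1, Nr1d2, Arntl and Clock, out of 31053 genes in the count tables, and all 10 were found. The list was selected on earlier values of these same libraries in the comparison of corticosterone with its vehicle, so the values of the 10 genes in that comparison are given as a description, without a test.

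The clock is a feedback loop that most cells carry. ARNTL (also called BMAL1) and CLOCK pair up and switch on the Per and Nr1d genes and the output genes Dbp, Tef and Hlf. The PER proteins then block that pair, and the REV-ERB receptors encoded by Nr1d1 and Nr1d2 repress Arntl, so that Arntl messages are high when Dbp and Nr1d1 messages are low. Glucocorticoids are known to set the phase of clocks outside the master clock of the hypothalamus, and Per1 is a known direct target of the glucocorticoid receptor.

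Single cells were captured from male wild type C57BL/6 mice aged 13 weeks, with 1 library from each of 10 mice. Mice drank corticosterone (CORT, 35 µg/ml) or its vehicle 2-hydroxypropyl cyclodextrin (BCD) for 6 weeks, were injected with ketamine (Ket, 10 mg/kg) or saline (Sal), and were sampled 24 h later. Saline was given to the BCD mice 9901 and 9947 (BCD-Sal) and to the CORT mice 9969 and 9970 (CORT-Sal). Ketamine was given to the BCD mice 9946, 9949 and 9986 (BCD-Ket) and to the CORT mice 9967, 9968 and 9971 (CORT-Ket), and values are given in this order of mice, without those that had too few cells of a class. The hour of the day at which each brain was taken was not given in the sources used here, and a difference in that hour between the groups cannot be told apart from the treatments in any of these values, since clock gene levels follow the hour. The libraries held 626 to 4604 barcodes and 811628 to 7281768 unique molecular identifiers (UMIs) each. Of 28722 barcodes, 8305 had at least 200 genes and a mitochondrial fraction of UMIs of at most 0.125 and were kept. Mouse 9970 stood apart: 97.1% of its barcodes were kept against 16.8% to 31.0% in the other libraries, and it gave 99.6% of a cluster of 2354 barcodes that carried no cell class name. Mice 9947, 9946, 9967 and 9970 gave under 10 astrocytes and under 10 microglia each, so those classes were compared in 3 CORT against 3 BCD libraries. There were 21 kept barcodes found in more than 1 library, at most 10 of them in the same pair of libraries.

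The kept cells were clustered without the 10 genes and the other listed genes and named by their leading marker genes, and UMIs were summed for each class in each library with at least 10 of its cells. Classes with enough libraries were endothelial cells (1095 cells, led by Cldn5 and Ly6c1), mural cells (271 cells of the vessel wall, led by Tagln, Acta2 and Vtn), astrocytes (1293), microglia (863), oligodendrocyte precursor cells (392), oligodendrocytes (380), excitatory neurons (251) and inhibitory neurons (294). Of the inhibitory neurons, 150 were in a cluster with Penk and Drd2 among its leading genes, both known from medium spiny neurons of the striatum. A further group of 779 barcodes, led by Cpne7, Miat and Col6a1, had too few markers for a name and is called cluster 3. Mouse 9901 gave 47.1% of it. Levels are given as counts per 1000000 UMIs of the class (CPM), and a fold change is the log2 difference fitted by edgeR with ketamine in the model, ± an approximate standard error (SE). The SE is the absolute difference divided by the square root of edgeR's quasi-likelihood F statistic. For the 10 genes in the comparison of CORT with BCD it describes the fit and is not a test. Of the 90 pairs of a gene and a class, 61 passed the filter on low counts and 29 did not.

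The members lie on 7 chromosomes. In the mm9 annotation, Dbp lies at chr7:52960458-52965525, Tef at chr15:81632851-81657291 and Hlf at chr11:90197849-90252231. Per1 lies at chr11:68908719-68923462, Per2 at chr1:93312561-93355907 and Per3 at chr4:150377761-150418774. Nr1d1 lies at chr11:98629246-98636647, Nr1d2 at chr14:19036568-19071641, Arntl at chr7:120350979-120457636 and Clock at chr5:76639992-76733817. Since CLOCK and ARNTL bind the E-box CACGTG, the DBP, TEF and HLF proteins bind D-boxes, and REV-ERB and ROR receptors bind ROR elements, these letters were sought on both strands of 14 RefSeq windows (GRCm38.p6) of 300 bases around the starts of the members. The windows held 250 bases before and 50 after each start, and 9 members had at least 1, with Per2 the exception. The E-box was in the windows of Per1 and Tef, in Tef before both of its starts, and in 7.15% of all 32851 promoter windows. The D-box TTATGTAA was in the window of Per3 alone among the members and in 0.938% of all windows, and its variant TTACGTAA was in no member's window and in 0.119% of all. The ROR element TAGGTCA was in a window of Arntl and in 2.61% of all windows. The glucocorticoid receptor palindrome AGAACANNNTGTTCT was in no member's window and in 0.00913% of all. The 250 bases before the start of the members with such a match are shown 5′ to 3′ with the matches in capitals, the Per1 E-box beginning 166 bases, the Tef E-box 127 bases and the Per3 D-boxes 205 and 158 bases before the start.
Per1, chr11:69098699-69098948, plus strand: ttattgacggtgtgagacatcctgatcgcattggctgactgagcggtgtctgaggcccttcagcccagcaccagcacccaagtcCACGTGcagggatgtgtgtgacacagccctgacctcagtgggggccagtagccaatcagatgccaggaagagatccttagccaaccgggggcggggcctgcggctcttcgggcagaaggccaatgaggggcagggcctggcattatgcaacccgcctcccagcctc
Tef, chr15:81802423-81802672, plus strand: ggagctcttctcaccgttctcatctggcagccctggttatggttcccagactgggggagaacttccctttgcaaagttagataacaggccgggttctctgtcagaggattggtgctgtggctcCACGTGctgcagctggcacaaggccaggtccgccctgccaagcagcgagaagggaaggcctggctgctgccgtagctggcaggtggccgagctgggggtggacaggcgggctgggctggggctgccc
Per3, chr4:151044666-151044915, minus strand: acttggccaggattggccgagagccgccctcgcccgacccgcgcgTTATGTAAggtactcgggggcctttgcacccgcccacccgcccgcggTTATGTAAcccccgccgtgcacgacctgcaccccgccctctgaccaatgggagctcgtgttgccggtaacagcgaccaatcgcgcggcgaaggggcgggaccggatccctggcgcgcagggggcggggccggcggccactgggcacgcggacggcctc
The ROR element of Arntl began 30 bases after the start and is shown with 10 bases on either side, since the members Nr1d1 and Nr1d2 encode receptors that bind elements of this kind.
Arntl, chr7:113207531-113207557, plus strand: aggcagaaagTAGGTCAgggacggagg

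Endothelial cells, which line the vessels, had the largest fitted differences between CORT and BCD libraries for Dbp, Hlf, Nr1d1, Nr1d2, Per1 and Arntl among the classes where each passed the filter, while those of Tef and Per3 were larger in mural cells. Of the 9 members that passed the filter there, 7 had lower fitted levels with CORT, from Per3 at -1.10 to Dbp at -3.11 on the log2 scale, and Arntl and Clock had higher ones. The libraries differed in depth, from 33734 to 567390 endothelial UMIs with BCD and from 3411 (11 cells of mouse 9970) to 412005 with CORT, so 1 UMI in mouse 9970 stood for 293 CPM. The sums per class and library do not tell fewer expressing cells of a class from less RNA per cell. The share of cells with each gene was not examined here.

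The output genes encode a family of transcription factors with a proline- and acid-rich region that carry the rhythm to metabolism and detoxification genes. Dbp in endothelial cells was at 164 and 0 CPM (saline) and 116, 111 and 125 (ketamine) in BCD mice and at 12.1 and 293 (saline) and 55.0, 8.96 and 13.9 (ketamine) in CORT mice. The 293 and 55.0 CPM of mice 9970 and 9967 were 1 UMI each, and the 0 of mouse 9947 came from 33734 UMIs, which allows up to 88.9 CPM, so the groups overlapped through the shallowest libraries. Over all UMIs of each side, Dbp was at 123 CPM with BCD (162 UMIs) and 13.2 CPM with CORT (14 UMIs), and the fitted difference was -3.11 ± 0.42. Tef was at 164 and 148 CPM (saline) and 145, 70.5 and 113 (ketamine) in BCD mice and at 24.3 and 0 (saline) and 0, 41.8 and 55.4 (ketamine) in CORT mice, a difference of -1.62 ± 0.35. Every BCD library was above every CORT library, although the zeros of mice 9970 and 9967 allow up to 880 and 165 CPM and so cannot place these 2 libraries below the BCD values. Hlf was at 229 and 88.9 CPM (saline) and 183, 67.0 and 110 (ketamine) in BCD mice and at 26.7 and 0 (saline) and 0, 29.9 and 34.6 (ketamine) in CORT mice, a difference of -2.17 ± 0.37, again with no overlap as listed and with zeros of the same limits in mice 9970 and 9967.

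The Period genes encode the repressors that close the loop. Per1 in endothelial cells was at 50.9 and 29.6 CPM (saline) and 67.6, 70.5 and 14.9 (ketamine) in BCD mice and at 9.71 and 293 (saline) and 55.0, 5.97 and 17.3 (ketamine) in CORT mice, a difference of -1.91 ± 0.46. The groups overlapped, also among the deeper libraries, since mouse 9986 (BCD-Ket) was below mouse 9971 (CORT-Ket). Per3 was at 127 and 119 CPM (saline) and 67.6, 35.2 and 65.4 (ketamine) in BCD mice and at 34.0 and 0 (saline) and 0, 32.9 and 38.1 (ketamine) in CORT mice, a difference of -1.10 ± 0.38. Here mouse 9949 (BCD-Ket) lay within the CORT range. Per2 did not pass the filter, with 18 UMIs in the BCD and 2 UMIs in the CORT libraries.

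Nr1d1 and Nr1d2 encode the heme-binding REV-ERB receptors, repressors of Arntl. Nr1d1 in endothelial cells was at 127 and 119 CPM (saline) and 135, 104 and 128 (ketamine) in BCD mice and at 26.7 and 293 (saline) and 55.0, 11.9 and 17.3 (ketamine) in CORT mice, a difference of -2.52 ± 0.39. All BCD libraries lay above all CORT libraries except mouse 9970, whose value was again 1 UMI. Nr1d2 was at 124 and 267 CPM (saline) and 183, 104 and 98.1 (ketamine) in BCD mice and at 26.7 and 0 (saline) and 0, 38.8 and 17.3 (ketamine) in CORT mice, a difference of -2.23 ± 0.37. The listed values did not overlap, but 2 of the CORT values were again the zeros of mice 9970 and 9967, and the 3 deeper CORT libraries were below all BCD libraries.

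Of the activating pair, Arntl stood higher with CORT. It was at 7.28 and 0 CPM (saline) and 0, 14.1 and 2.97 (ketamine) in BCD mice and at 41.3 and 0 (saline) and 0, 23.9 and 76.2 (ketamine) in CORT mice, a difference of 2.39 ± 0.54. The 2 zeros with CORT came from the shallow libraries of mice 9970 and 9967, whose 3411 and 18197 UMIs allow up to 880 and 165 CPM. The 2 zeros with BCD came from mice 9947 and 9946, which allow up to 88.9 and 29.0 CPM, so they too could not be placed below every CORT value. Clock was at 94.6 and 148 CPM (saline) and 116, 61.7 and 92.2 (ketamine) in BCD mice and at 107 and 293 (saline) and 110, 92.6 and 118 (ketamine) in CORT mice. Its difference was 0.24 ± 0.32 and the groups overlapped.

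**Figure D1:**
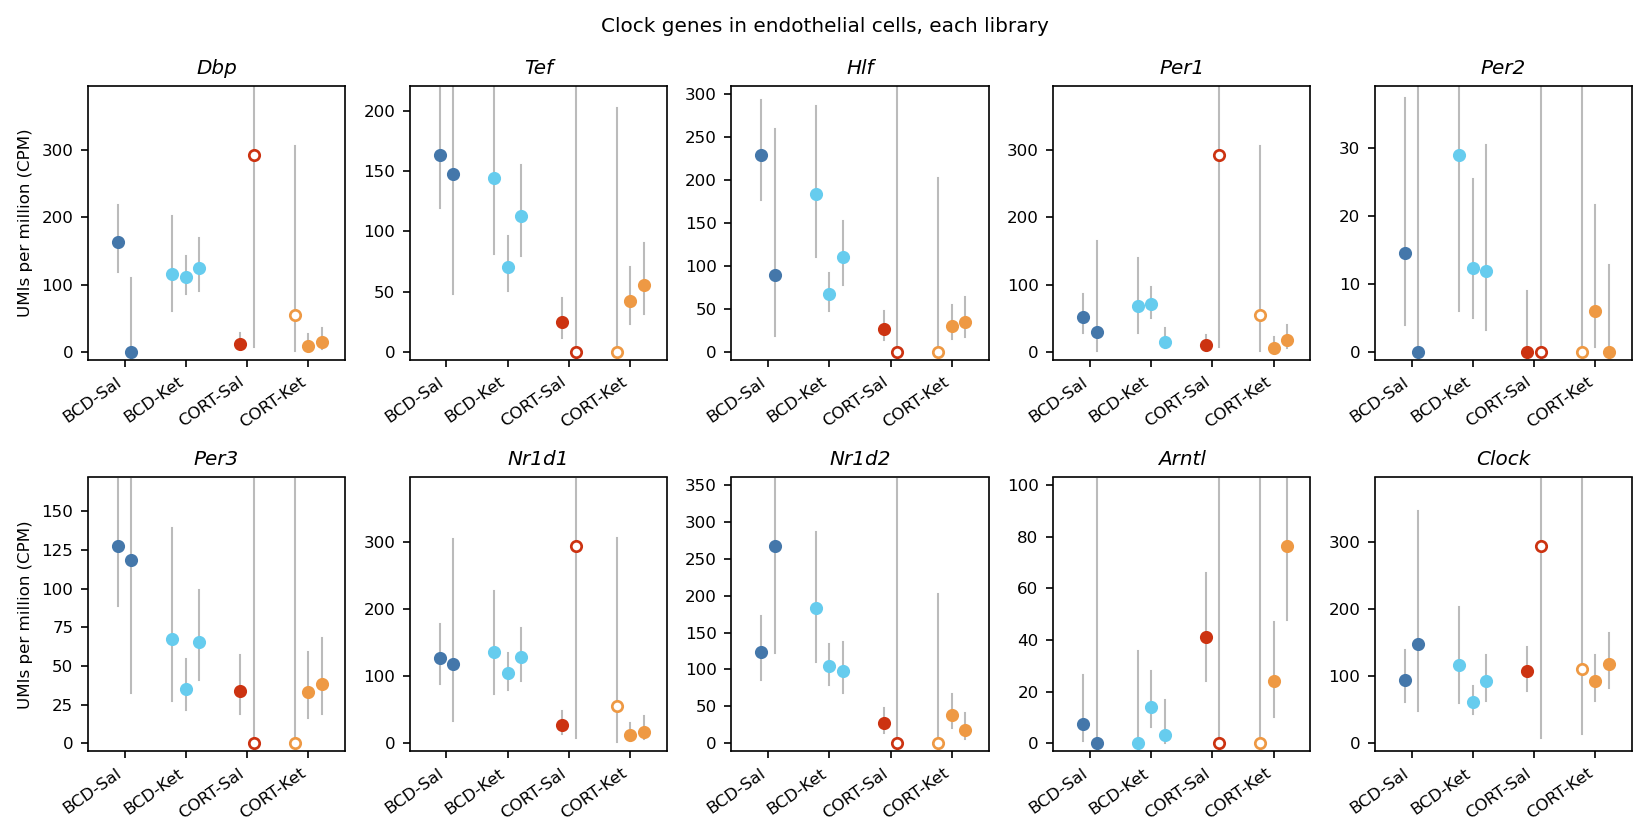
Level of each clock gene in endothelial cells (CPM, linear axis) for every library, with the 4 treatment groups on the horizontal axis. Filled points are libraries with at least 40 endothelial cells and open points those with fewer, grey lines are exact 95% Poisson intervals (cut off at the top of the panel), and the output and Nr1d genes sit lower in the filled CORT points than in all but 1 of the BCD points (Dbp of mouse 9947, at 0).

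In endothelial cells, 3 of the 9 members (Tef, Hlf and Nr1d2) had all CORT libraries below all BCD libraries, as did 0.501% of the 6393 genes tested. Without mouse 9970, the only library with under 30 endothelial cells, the members were 4, with Nr1d1 added, against 0.624% of 7696 genes. Without mice 9947, 9946, 9967 and 9970, a set chosen after the data were seen, they were 5 of 9, with Dbp added, against 3.77% of 6998 genes, and Arntl had all CORT libraries above all BCD libraries, as did 6.02% of those genes. The rule used this contrast, so these shares describe the members and are not a test of them. Within the 4 saline libraries the Dbp difference was -3.14 ± 0.65 and within the 6 ketamine libraries -3.18 ± 0.48. For Nr1d1 these values were -2.04 ± 0.64 and -2.89 ± 0.46, and for Nr1d2 -2.51 ± 0.73 and -2.09 ± 0.44. Tef differed more between the strata, at -2.69 ± 0.71 with saline and -1.13 ± 0.41 with ketamine, a difference that did not pass the test of the interaction (adjusted p = 0.996, edgeR).

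Markers of other cells in the endothelial sums were given beside these values. The 13 astrocyte markers summed to 106 to 1299 CPM with BCD (median 439) and 0 to 1264 CPM with CORT (median 468), the 11 mural markers to 474 to 2168 (median 860) and 714 to 1840 CPM (median 1476), and the 13 oligodendrocyte markers to 582 to 1448 (median 802) and 293 to 807 CPM (median 604). The 5 erythrocyte markers ranged from 0 to 31466 CPM with BCD and from 55.0 to 13340 CPM with CORT. Mitochondrial UMIs made up 5.09% to 7.09% of the class with BCD and 6.09% to 6.98% with CORT. The part of these in the clock gene values was not tested. The endothelial markers themselves summed to 23448 to 28992 CPM with BCD and 21695 to 32208 CPM with CORT.

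Mural cells, the pericytes and smooth muscle cells around the vessels, had the same direction for 6 of the 7 members that passed the filter, from Nr1d2 at -1.46 to Dbp at -2.60. Dbp was at 335 CPM (saline) and 103, 318 and 210 (ketamine) in BCD mice and at 58.1 (saline) and 48.0 and 27.9 (ketamine) in CORT mice, a difference of -2.60 ± 0.46. These were mice 9901, 9946, 9949 and 9986 with BCD and 9969, 9968 and 9971 with CORT. All BCD libraries were above all CORT libraries, the lowest of them resting on 1 UMI in the 12 cells of mouse 9946. Tef was at 220 CPM (saline) and 103, 99.8 and 154 (ketamine) in BCD mice and at 29.0 (saline) and 38.4 and 14.0 (ketamine) in CORT mice, a difference of -2.39 ± 0.59 without overlap. The value of mouse 9946 was again 1 UMI, and the CORT values were 4, 4 and 1 UMIs. Hlf was at 543 CPM (saline) and 103, 186 and 349 (ketamine) in BCD mice and at 94.4 (saline) and 76.7 and 112 (ketamine) in CORT mice, a difference of -1.82 ± 0.41. Hlf overlapped only through mouse 9946.

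In the repressor arm of mural cells, Nr1d1 was at 277 CPM (saline) and 206, 340 and 223 (ketamine) in BCD mice and at 65.3 (saline) and 125 and 41.9 (ketamine) in CORT mice, a difference of -1.80 ± 0.41. Nr1d2 was at 150 CPM (saline) and 412, 99.8 and 168 (ketamine) in BCD mice and at 43.5 (saline) and 38.4 and 83.8 (ketamine) in CORT mice, a difference of -1.46 ± 0.52. For both genes every BCD library was above every CORT library as listed. The lowest BCD value of Nr1d1 was 2 UMIs of mouse 9946. For Nr1d2 the closest values were 99.8 CPM (22 UMIs) in BCD mouse 9949 and 83.8 CPM (6 UMIs) in CORT mouse 9971. Per3 was at 127 CPM (saline) and 0, 54.5 and 126 (ketamine) in BCD mice and at 7.26 (saline) and 28.8 and 27.9 (ketamine) in CORT mice, a difference of -2.13 ± 0.79, and overlapped through mouse 9946. Per1, Per2 and Arntl did not pass the filter. Their levels were 55.9 to 103 CPM with BCD against 19.2 to 27.9 with CORT for Per1, 0 to 69.4 against 0 to 14.5 for Per2, and 0 to 13.6 against 14.0 to 29.0 for Arntl. Clock was at 27.9 to 150 CPM with BCD and 86.3 to 195 with CORT, a difference of 0.52 ± 0.49.

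Dbp, Tef, Nr1d1 and Nr1d2 thus had all CORT libraries below all BCD libraries in mural cells, 4 of 7 members against 2.46% of 3136 genes tested. Leaving out each library in turn gave 4 to 6 such members, with the share of all genes not determined for these sets. Mural sums held RNA of endothelial markers at 8465 to 13714 CPM with BCD and 9200 to 10619 CPM with CORT, below the 21695 to 32208 CPM in endothelial cells and next to 13993 to 27953 CPM of mural markers. The part of endothelial RNA in the mural values was not tested. Astrocyte markers in mural cells summed to 196 to 948 CPM with BCD and 211 to 435 CPM with CORT, and the 5 erythrocyte markers were at 0 to 25729 CPM with BCD and at 0 in all 3 CORT libraries.

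Astrocytes carried all 10 members past the filter and showed smaller differences. Dbp was at 211 CPM (saline) and 307 and 299 (ketamine) in BCD mice and at 208 (saline) and 155 and 115 (ketamine) in CORT mice, a difference of -0.81 ± 0.24. The saline pair was nearly level and the ketamine pair apart. Nr1d2 was at 102 CPM (saline) and 118 and 123 (ketamine) in BCD mice and at 80.6 (saline) and 81.4 and 85.6 (ketamine) in CORT mice, a difference of -0.49 ± 0.26. Per2 was at 30.6 CPM (saline) and 45.6 and 25.2 (ketamine) in BCD mice and at 18.1 (saline) and 17.9 and 23.6 (ketamine) in CORT mice, a difference of -0.85 ± 0.41. These 3 members had all CORT libraries below all BCD libraries, against 4.15% of 8322 genes. For each, the closest libraries had overlapping exact Poisson intervals. These were 162 to 270 CPM (mouse 9901) and 169 to 252 (mouse 9969) for Dbp. For Nr1d2 they were 68.8 to 146 CPM (mouse 9901) and 57.3 to 123 (mouse 9971). For Per2 they were 11.5 to 47.8 CPM (mouse 9986, 9 UMIs) and 10.2 to 46.5 (mouse 9971, 8 UMIs). With at most 5% mitochondrial UMIs none of the 10 had all CORT libraries below, and the share of all genes there was not determined. Per1 differed by -0.92 ± 0.33, Nr1d1 by -0.46 ± 0.24, Tef by -0.35 ± 0.23, Per3 by -0.17 ± 0.23 and Hlf by -0.08 ± 0.24, each with overlap. Arntl differed by 0.13 ± 0.32 and Clock by 0.41 ± 0.30.

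In microglia, the resident immune cells of the brain, 5 members passed the filter. Hlf was at 50.2 CPM (saline) and 29.7 and 48.0 (ketamine) in BCD mice and at 14.8 (saline) and 12.6 and 25.9 (ketamine) in CORT mice, a difference of -1.22 ± 0.53. Nr1d2 was at 50.2 CPM (saline) and 27.0 and 52.3 (ketamine) in BCD mice and at 14.8 (saline) and 15.8 and 21.6 (ketamine) in CORT mice, a difference of -1.23 ± 0.53. Neither overlapped as listed, against 4.52% of 6245 genes. For both genes the closest values were those of BCD mouse 9949 and CORT mouse 9971. They were 11 and 6 UMIs for Hlf, with overlapping exact Poisson intervals of 14.8 to 53.2 and 9.52 to 56.5 CPM. For Nr1d2 they were 10 and 5 UMIs, with overlapping intervals of 13.0 to 49.7 and 7.02 to 50.5 CPM. Counting error alone could thus close these gaps. Per3 (-0.73 ± 0.41), Tef (-0.65 ± 0.34) and Clock (0.08 ± 0.35) overlapped. Dbp was under the filter, at 17.4 to 27.9 CPM with BCD and 4.32 to 12.6 CPM with CORT, on 17 UMIs in all BCD libraries. Astrocyte markers in the microglial sums were at 567 to 953 CPM with BCD and 328 to 720 CPM with CORT, and their part in these values was not tested.

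In oligodendrocyte precursor cells, Per3 was at 121 CPM (saline) and 110 and 172 (ketamine) in BCD mice and at 96.8 (saline) and 73.3 and 80.0 (ketamine) in CORT mice, a difference of -0.71 ± 0.46. It was the only 1 of 5 members without overlap, against 4.01% of 4040 genes. Its closest values, of BCD mouse 9949 (11 UMIs) and CORT mouse 9969 (14 UMIs), had overlapping Poisson intervals of 55.0 to 197 and 52.9 to 162 CPM. The differences of the other 4 lay between -0.47 ± 0.52 for Nr1d2 and -0.05 ± 0.45 for Tef. In oligodendrocytes only Tef (-0.10 ± 0.43) and Clock (-0.27 ± 0.43) passed the filter, both with overlap, against 2.32% of 3494 genes without.

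The named neuron classes showed no member with all CORT libraries below all BCD libraries, against 2.52% of 6733 genes in excitatory and 0.936% of 2778 genes in inhibitory neurons. In excitatory neurons, where all 10 members passed, Dbp was at 49.9 and 45.5 CPM (saline) and 58.9 and 48.1 (ketamine) in BCD mice and at 36.6 (saline) and 54.6 and 14.1 (ketamine) in CORT mice, a difference of -0.57 ± 0.49. Hlf had the largest difference of the 10 there, at -0.86 ± 0.38, and Nr1d1 the smallest, at 0.01 ± 0.47. Without mice 9947, 9946 and 9967, 4 libraries were left and 4 of the 10 members (Dbp, Tef, Per3 and Clock) had all CORT libraries below all BCD libraries, against 19.5% of 6353 genes. The 5 members that passed in inhibitory neurons differed by -0.43 ± 0.55 (Nr1d2) to 0.02 ± 0.46 (Clock). In cluster 3, Per1 was at 30.2 CPM (saline) and 0, 202 and 45.6 (ketamine) in BCD mice and at 107 (saline) and 244 and 83.3 (ketamine) in CORT mice, a difference of 1.23 ± 0.50 with overlap. Clock was the 1 of its 8 members without overlap, at 195 to 285 CPM with BCD and 134 to 182 CPM with CORT (-0.45 ± 0.40), against 3.59% of 4767 genes. Its closest libraries, BCD mouse 9901 and CORT mouse 9971, had overlapping Poisson intervals of 161 to 233 and 134 to 241 CPM. The 14 excitatory markers summed to 3262 to 7375 CPM with BCD and 3301 to 4212 CPM with CORT in cluster 3. In excitatory neurons they summed to 5585 to 7990 and 7528 to 8670 CPM. Whether cluster 3 holds excitatory neurons was not tested.

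**Figure D2:**
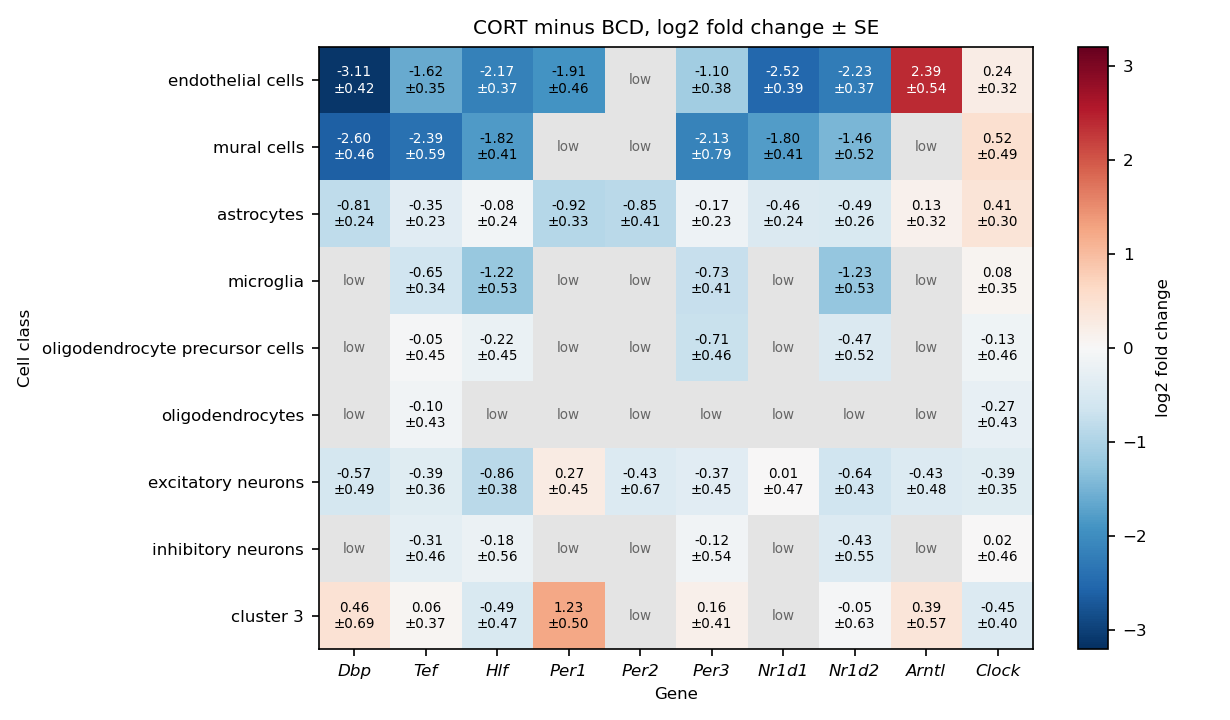
Fitted log2 fold change of CORT minus BCD (colour, and number ± SE) for each clock gene (columns) in each cell class (rows). Grey cells marked low did not pass the filter on low counts, and the deepest blue lies in endothelial cells (Dbp -3.11) and mural cells (Dbp -2.60), with Arntl red at 2.39 in endothelial cells.

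Over the 9 classes, 14 of the 61 pairs of a member and a class had all CORT libraries below all BCD libraries against 2.93% of the 45908 pairs of any gene and class, and 0 had all above, against 3.35%. These counts take no account of counting error. Of the 29 pairs under the filter, 3 had all CORT libraries below (Dbp and Nr1d1 in microglia and Per1 in mural cells) and 2 had all above (Arntl in mural cells and Per2 in cluster 3, the latter at 34.1 to 73.3 CPM against 0 to 26.8 CPM). The share among all genes under the filter was not determined, so these counts have no comparison. They rest on few UMIs, such as 0, 1 and 1 with CORT for Nr1d1 in microglia. The median fold change of all genes tested lay between -0.04 and 0.04 in every class.

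The level of each member was also followed across classes in the BCD libraries, saline and ketamine together. The class orders given here are those of the means over libraries. Dbp was highest in astrocytes, at 272 ± 53.6 CPM (SD, n = 3), followed by mural cells at 241 ± 108 (n = 4) and endothelial cells at 103 ± 61.2 (n = 5), and lowest in oligodendrocytes at 12.1 ± 13.5 (n = 5). Over all UMIs of the class the first 2 changed places, at 296 CPM in mural cells and 282 CPM in astrocytes. Nr1d1 was highest in mural cells at 262 ± 60.6 CPM (n = 4), then 184 ± 54.8 in astrocytes (n = 3), 123 ± 11.9 in endothelial cells (n = 5) and 48.7 ± 17.2 in excitatory neurons (n = 4). The endothelial libraries were all below the astrocyte libraries and all above those of excitatory neurons. The closest endothelial and astrocyte values were 135 CPM (14 UMIs of mouse 9946) and 136 CPM (40 UMIs of mouse 9901). Their Poisson intervals overlapped, at 73.9 to 227 and 97.1 to 185 CPM. Hlf and Nr1d2 were also highest in mural cells, at 295 ± 194 and 207 ± 139 CPM (n = 4), and Per3 in astrocytes at 223 ± 54.9 CPM (n = 3). The mural mean of Nr1d2 rested on 4 UMIs of mouse 9946 (412 CPM), and over all UMIs Nr1d2 was at 131 CPM in mural cells and 134 CPM in inhibitory neurons.

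The activating pair had another order of classes. Clock was highest in cluster 3 at 232 ± 44.7 CPM (n = 4) and inhibitory neurons at 231 ± 63.1 (n = 5), and lowest in astrocytes at 56.3 ± 21.8 (n = 3). Arntl was at 56.7 ± 32.4 CPM in cluster 3 (n = 4), 55.1 ± 26.3 in inhibitory neurons (n = 5), 49.5 ± 19.2 in excitatory neurons (n = 4) and 45.6 ± 7.66 in astrocytes (n = 3). It was at 6.29 ± 7.32 CPM in mural cells (n = 4) and 4.87 ± 5.96 in endothelial cells (n = 5), where its highest BCD library (14.1) was below the lowest of excitatory neurons (23.0). Tef was highest in inhibitory neurons at 274 ± 104 CPM (n = 5) and Per1 in mural cells at 70.0 ± 22.2 (n = 4). Over all UMIs neither was first, with Tef at 298 CPM in cluster 3 and 272 CPM in inhibitory neurons, and Per1 at 67.1 CPM in inhibitory neurons and 61.8 CPM in mural cells. Per2 was highest in oligodendrocyte precursor cells at 45.9 ± 24.9 CPM (n = 3), on 12 UMIs. Of the 80 neighbouring pairs in these orders, the ranges of the libraries overlapped in 75, so most neighbours could not be ordered by these ranges. The ranges did not pair the classes of the same mouse, and the order within each mouse was not examined.

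**Figure D3:**
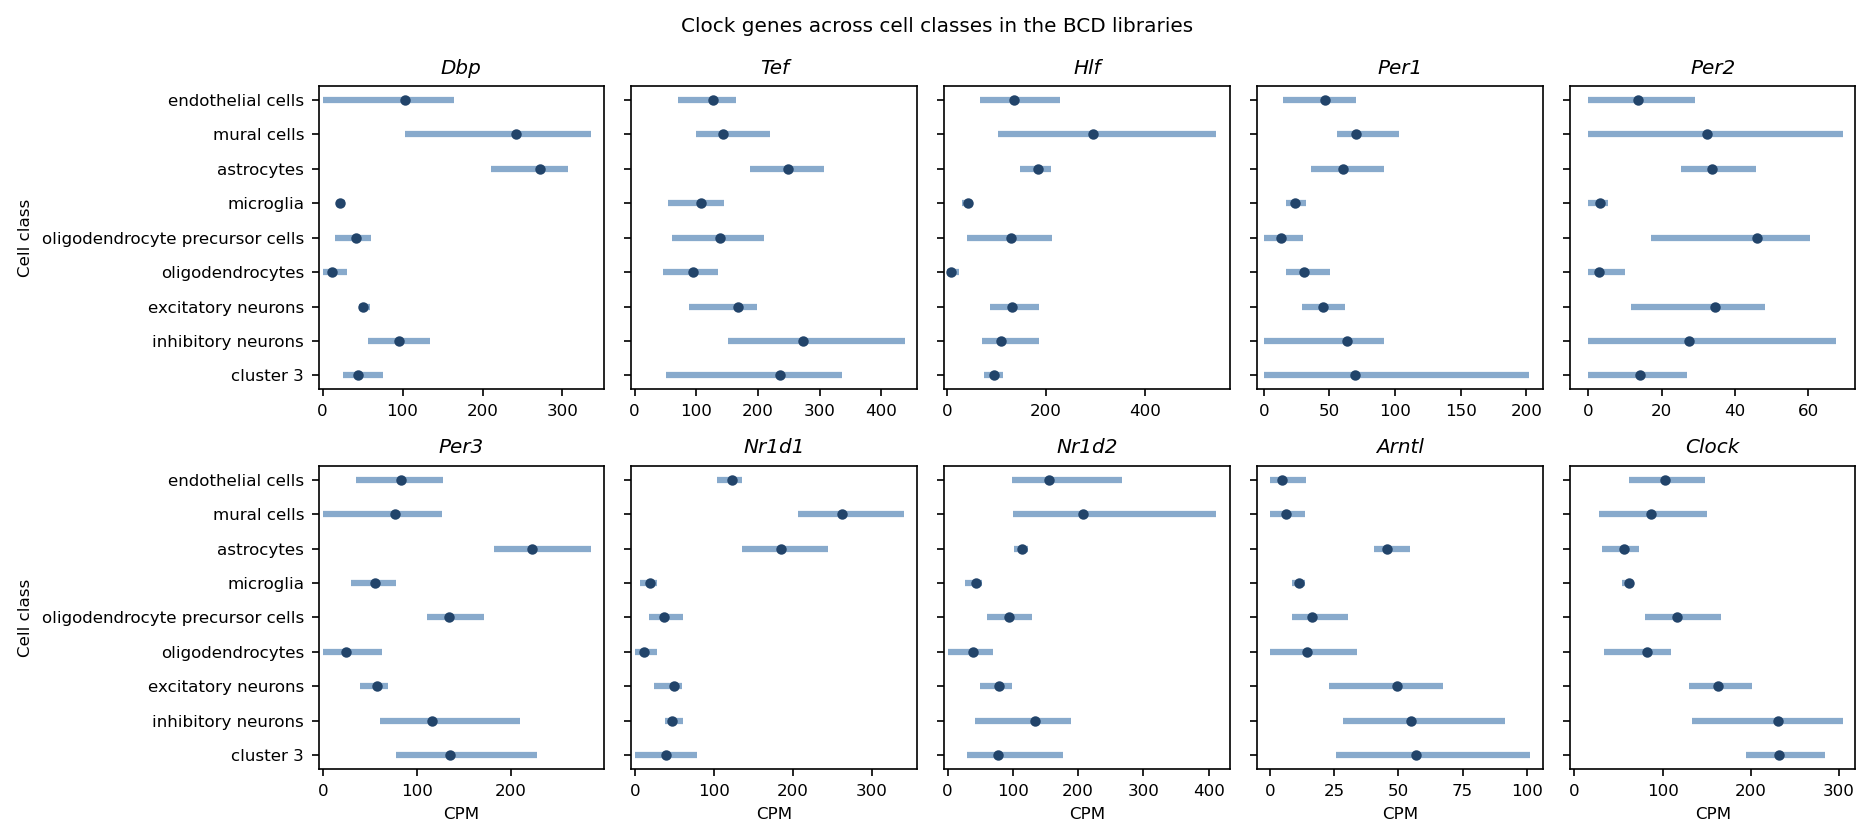
Level of each clock gene (CPM, linear axes) in the BCD libraries of each cell class. Points are means over libraries and bars run from the lowest to the highest library, with Dbp highest in astrocytes (272 CPM), Nr1d1 highest in mural cells (262 CPM) and Clock highest in cluster 3 (232 CPM).

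Ketamine against saline was not used to choose the genes and was tested for them. None of the 61 pairs of a member and a class passed an adjusted p of 0.05 in edgeR's quasi-likelihood test, where 0.00871% of the 45908 pairs of any gene and class did, and 2 had an unadjusted p under 0.05, where 2.77% of all pairs did. DESeq2 called 0 of the 61, and 0 at an unadjusted p under 0.05. The lowest adjusted p by edgeR was 0.787, for Clock in excitatory neurons (0.46 ± 0.34 on the log2 scale). The largest difference was Hlf in mural cells at -0.81 ± 0.39 (adjusted p = 0.999), and Per3 in endothelial cells followed at -0.78 ± 0.38 (adjusted p = 1.00). Dbp differed by -0.12 ± 0.38 in endothelial and -0.08 ± 0.25 in astrocytes.

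Whether ketamine acted differently in CORT and BCD mice was tested as an interaction in the 4 groups. No member passed in any class by edgeR (lowest adjusted p = 0.803), against 0.0131% of all pairs, and 2 had an unadjusted p under 0.05, where 3.9% of all pairs did. These were Dbp in astrocytes, with an interaction of -1.13 ± 0.47 on the log2 scale (adjusted p = 0.803), and Tef in endothelial cells, at 1.56 ± 0.79 (adjusted p = 0.996). In most classes CORT-Sal and BCD-Sal rested on 1 library each, which were assumed to vary like the others.

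**Figure D4:**
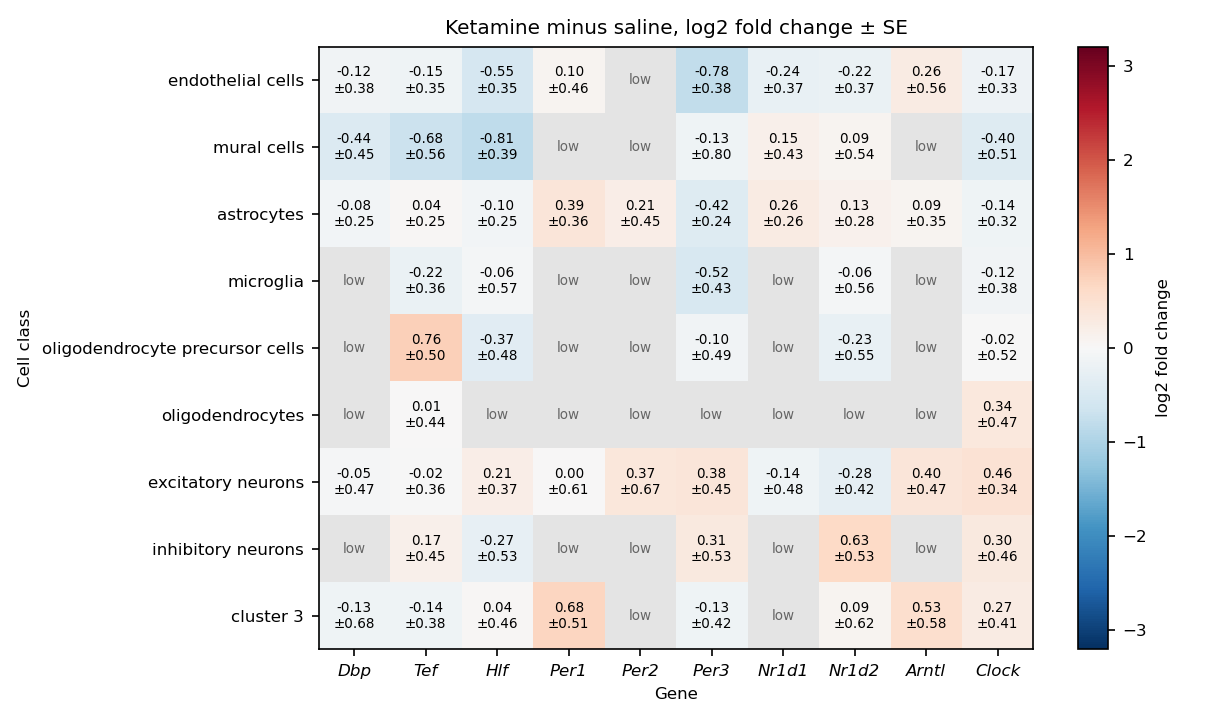
Fitted log2 fold change of ketamine minus saline (colour, on the same scale as the CORT plot, and number ± SE) for each clock gene in each cell class. No value passed the adjusted threshold, and all lie between -0.81 and 0.76.

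The rest of the clock was read from 22 further genes, in lists chosen with earlier results of these data known. Of 11 transcription factors and repressors (among them Cry1, Cry2, Bhlhe40, Npas2, Rora and Rorb), 28 pairs of a gene and a class were tested for CORT against BCD and 0 passed the adjusted threshold in edgeR, with 4 at an unadjusted p under 0.05. DESeq2 also called 0, with 3 unadjusted. Only pairs that passed the filter on low counts were tested, which in endothelial cells were 3 of these 11 genes. The other genes of this list were not tested there. Of 8 kinases and ubiquitin ligases, 47 pairs gave 0 calls and 1 unadjusted p under 0.05 by edgeR, and 0 and 0 by DESeq2. Of 3 output genes (Usp2, Wee1 and Nampt), 11 pairs gave 0 of either kind with both tools. Over all genes, 0.102% of pairs passed by edgeR. The unadjusted values included Bhlhe40, which encodes a repressor of ARNTL and CLOCK, in astrocytes (-0.68 ± 0.26, adjusted p = 0.818), Rorb, a ROR receptor gene, in astrocytes (-0.48 ± 0.21, adjusted p = 0.860) and in oligodendrocyte precursor cells (-1.91 ± 0.58, adjusted p = 0.499), and Rora in excitatory neurons (-0.86 ± 0.40, adjusted p = 0.767). Median differences were -0.08, -0.09 and -0.21 for the 3 lists.

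Of 11 genes known to be induced by glucocorticoids, 37 pairs were tested and 1 passed by edgeR, Tsc22d3 (GILZ) in endothelial cells, with 16 at an unadjusted p under 0.05, as had 4.93% of all pairs of a gene and a class. DESeq2 called 1, with 8 unadjusted. Tsc22d3 was at 247 and 385 CPM (saline) and 367, 414 and 208 (ketamine) in BCD mice and at 82.5 and 0 (saline) and 0, 83.6 and 100 (ketamine) in CORT mice, and the 3 deeper CORT libraries were below all 5 BCD libraries, while the zeros of mice 9970 and 9967 came from 3411 and 18197 UMIs (-1.91 ± 0.34, edgeR adjusted p = 1.3e-05). The list's median difference was -0.55. Of 12 immediate early and dissociation-induced genes, 45 pairs gave 0 calls and 5 unadjusted p under 0.05 by edgeR, 0 and 2 by DESeq2, with a median of -0.07. The classes differed, since in microglia all 5 tested genes of this list had lower fitted levels with CORT (median -1.75, 3 at an unadjusted p under 0.05, lowest adjusted p = 0.893) and in excitatory neurons all 7 had higher ones (median 0.64, 1 unadjusted, lowest adjusted p = 0.562). Their part in the clock gene values of these classes was not tested. These lists too were written with earlier results of these data known.

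By the rule of the smallest root mean square difference from Dbp in library-centred log2 CPM, in astrocytes (the class with the most UMIs of the members, 3244), the 4 genes nearest to Dbp over 6 libraries were Coq10b, Katna1, Mterf2 and Ddx47, at 0.14 to 0.18 log2 units. The nearest member was Nr1d2, at 0.33 and place 153 of 8322 genes, and Nr1d1 came next at 0.38 and place 402. In endothelial cells, outside that rule, Per1 (1.12, place 16) and Nr1d1 (1.12, place 18) were nearest among the members, of 6393 genes over 10 libraries, and both shared with Dbp the single UMI in each of mice 9970 and 9967.

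The barcodes that did not pass the limits on genes and mitochondrial UMIs were summed without cell classes and gave further values from the same mice. Dbp was at 74.6 ± 25.1 CPM of non-mitochondrial UMIs with BCD (SD, n = 5) and 55.3 ± 13.8 with CORT (n = 5). Nr1d1 was at 59.4 ± 11.9 and 51.3 ± 25.8 CPM, Nr1d2 at 62.3 ± 15.1 and 36.2 ± 22.4, Per2 at 23.6 ± 11.4 and 29.7 ± 36.1, and Arntl at 22.2 ± 8.91 and 25.1 ± 12.4. Without mouse 9970, which had only 72 such barcodes and 21264 UMIs, the CORT means were 57.4 (44.0 to 76.5) for Dbp, 40.6 ± 11.1 for Nr1d1, 45.3 ± 11.2 for Nr1d2, 13.6 ± 3.43 for Per2 and 19.6 ± 2.09 for Arntl (n = 4). BCD and CORT libraries overlapped for each of these genes.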

How the data were processed

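Per the labels and the study's methods, dissociated BLA cells were captured on the 10x Chromium platform and the authors counted UMIs per gene and barcode with Cell Ranger; mm9 is the build given, and Seurat 3.1.1 is named in the submitters' processing notes. The deposited values are raw UMI counts, not normalized. The dissection text in the labels names the prefrontal cortex for all samples, while the tissue field gives BLA; prefrontal samples were not analysed here.

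Kept barcodes (at least 200 genes, a mitochondrial fraction of at most 0.125) were clustered on 2000 variable genes and 30 principal components (20 neighbours, Leiden resolution 0.8, leidenalg 0.10.2) without the listed genes. A cluster was named from at least 3 markers among its 50 leading genes, with at least 1 among the top 10, a condition set after the clusters were seen. No doublets were removed in the main analysis. Counts were summed per library and class (at least 10 cells), filtered with filterByExpr and fitted in edgeR 4.0.16 (TMM, quasi-likelihood, CORT plus ketamine, Benjamini-Hochberg over all genes of the class) in R 4.3.3. DESeq2 1.42.0, other barcode limits, doublet removal with Scrublet, other clusterings and libraries left out were the alternatives. The model was tested on simulated data. The smallest class and library sum held 3411 UMIs, and CPM values rest on counts whose exact 95% Poisson intervals and zero limits (3 counts) cover counting error only. All genes named belong to the lists, mark or lead a cluster, or are among the 5 genes nearest to Dbp, and 1 of these 5 is not reported here. The members and lists were chosen with earlier results of these data known. Each mouse was 1 library, so p-values measure the spread between mice.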

Additional observations from a re-analysis of the deposited data

Results flagged for a closer look

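Within the BCD or the CORT libraries of a class, 7 of 50 sets of values had a sample far from the others by Dixon's criterion, which chance meets in about 1 in 20. In endothelial cells with CORT, mouse 9970 was the highest for Dbp, Per1, Nr1d1 and Clock, at 293 CPM for each, which was 1 UMI of 3411. In excitatory neurons with BCD, mouse 9901 was the lowest for Nr1d1, at 23.0 CPM against 55.3 CPM in the next library, and mouse 9946 the lowest for Tef, at 88.4 CPM (9 UMIs) against 192 CPM. In cluster 3 with BCD, mouse 9949 was the highest for Nr1d2, at 177 CPM (7 UMIs) against 51.8 CPM.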

How the results depend on the processing

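No paired analysis was possible because each mouse number occurs in 1 group only. In endothelial cells the sign of the members' CORT minus BCD difference was the same in 217 of 217 values from alternatives, and in mural cells in 135 of 136, the exception being Clock at -0.05 without CORT-Ket mouse 9971. Of the endothelial values, 18 moved by 1 SE or more. The sign was the same in 94 of 95 values in microglia, 185 of 195 in astrocytes, 37 of 40 in oligodendrocytes and 86 of 92 in inhibitory neurons. It was the same in 161 of 175 in excitatory neurons, 122 of 133 in cluster 3 and 80 of 94 in oligodendrocyte precursor cells. The alternatives reuse the same libraries in the contrast of the rule, so these counts are not a test. Dbp ranged from -3.53 to -2.47 in endothelial and from -2.72 to -2.33 in mural cells, and Arntl in endothelial cells from 2.11 to 3.29. The number of members with all CORT libraries below all BCD libraries moved more. With no filter on low counts it was 4 in microglia. With at most 5% mitochondrial UMIs it was 0 in astrocytes, 1 in microglia and 0 in oligodendrocyte precursor cells, and with at most 25% it was 0 in cluster 3 and in oligodendrocyte precursor cells. With at least 500 genes it was 0 in cluster 3 and 5 in endothelial cells, and it was 0 in cluster 3 with the listed genes kept in the clustering or at a Leiden resolution of 0.4. Without the 4 libraries nearly lacking microglia, left out after the data were seen, it was 5 in endothelial cells, against 3.77% of genes, and 4 in excitatory neurons, against 19.5%. With each library left out in turn it was 0 to 2 in excitatory neurons, 2 to 4 in microglia and 1 to 2 in oligodendrocyte precursor cells. Except without the 4 libraries, the share of all genes was not determined for these settings, so their counts have no comparison. The cause of these changes was not tested. In the main setting the shares of all genes were 0.501% in endothelial cells and 2.52% in excitatory neurons. Among the other clock genes, leaving out each library in turn gave 0 to 1 calls, the call being Rorb in oligodendrocyte precursor cells without CORT-Ket mouse 9971 (-3.04, edgeR adjusted p = 0.0037). Over all genes and classes, edgeR called 47 pairs for CORT against BCD and DESeq2 6, and for ketamine 4 and 1. Depth limited the members most in mouse 9970, where 1 endothelial UMI was 293 CPM.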
